A study of Mus musculus with 6 samples.

Results

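The genes described are the enzymes that build triglyceride from glycerol-3-phosphate in the liver: the acyltransferases *Gpam*, *Agpat1*, *Agpat2*, *Agpat3* and *Agpat5*, the lipins *Lpin1*, *Lpin2* and *Lpin3*, and the diacylglycerol acyltransferases *Dgat1* and *Dgat2*. They were chosen by symbol, and each matched 1 of the 23282 genes counted in every library. All 10 passed the filter on low counts and were among the 14076 genes tested. Liver RNA was sequenced from 3 liver-specific *Tcf7l2*-knockout mice (genotype *Alb-Cre;Tcf7l2 f/f*, knockout libraries 7-2, 7-3 and 8-3) and 3 wild-type mice (genotype *Tcf7l2 f/f*, wild-type libraries 7-2, 8-1 and 8-3). Values are given in that order of libraries. The mice of both groups carried the floxed allele, were 12 weeks old by the labels, and were fasted for 24 h before normal chow was given back for another 24 h. The labels give the strain as C57BL/6, and the methods of the study describe C57BL/6N males with wild-type littermates. The albumin promoter drives Cre in hepatocytes, so other liver cells keep the gene, and the allele is floxed at exon 5 whereas the counts cover the whole gene. The comparison asks whether expression of the assembly steps differed between knockout and wild-type liver after refeeding.

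Total counts were 60619938 to 68760956 in knockout libraries and 67299258 to 133384586 in wild-type libraries. *Mup* genes, which encode the major urinary proteins secreted by male mouse liver, took 23.5% to 35.8% of the counts in knockout libraries and 38.9% to 64.4% in wild-type libraries. Values are therefore given as CPM, counts scaled by TMM-adjusted library sizes. Under this scaling the median log2 fold change over the 14076 genes was −0.017, whereas library sizes alone put it at 0.61. *Tcf7l2* mRNA was 3.31, 2.74 and 3.33 CPM in knockout livers, against 4.87, 6.13 and 6.85 CPM in wild-type livers (log2 fold change −0.93, SE 0.19, edgeR adjusted *p*=0.0856, DESeq2 adjusted *p*=0.00283). The hepatocyte marker *Alb*, encoding albumin, lay at 30194 to 42523 CPM in knockout livers and at 34508 to 36180 CPM in wild-type livers.

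Triglyceride is assembled in a short series of steps at the endoplasmic reticulum and the outer mitochondrial membrane. A glycerol-3-phosphate acyltransferase adds a fatty acid to glycerol-3-phosphate, an AGPAT adds another to give phosphatidate, a lipin removes the phosphate to give diacylglycerol, and a DGAT adds the last fatty acid. Phosphatidate and diacylglycerol are also used for phospholipids. In the liver, *Gpam* is a known target of the insulin-driven factor SREBP1c and is induced on refeeding, and *Lpin1* is known to be induced by fasting. Lipins also act in the nucleus as transcriptional coactivators.

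The sequences before the start sites are shown for the 3 genes with the smallest unadjusted *p* in the comparison and for *Lpin2*, the gene with an E-box. They come from RefSeq (build GRCm38.p6), lie before the most upstream start site with an entry, and are read 5′ to 3′ on the strand of the gene. Capitals mark a match to the E-box CACGTG. The windows are chr19:55127320-55127488 on the minus strand for *Gpam*, chr2:26604418-26604667 on the minus strand for *Agpat2*, chr17:71183282-71183531 on the plus strand for *Lpin2* and chr2:160880420-160880669 on the plus strand for *Lpin3*. The *Gpam* run holds 169 of the 250 bases of its window, since the other 81 lie inside the RefSeq gene.
Gpam: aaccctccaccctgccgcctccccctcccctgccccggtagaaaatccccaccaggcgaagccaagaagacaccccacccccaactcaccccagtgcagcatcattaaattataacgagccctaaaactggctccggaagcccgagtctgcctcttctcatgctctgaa
Agpat2: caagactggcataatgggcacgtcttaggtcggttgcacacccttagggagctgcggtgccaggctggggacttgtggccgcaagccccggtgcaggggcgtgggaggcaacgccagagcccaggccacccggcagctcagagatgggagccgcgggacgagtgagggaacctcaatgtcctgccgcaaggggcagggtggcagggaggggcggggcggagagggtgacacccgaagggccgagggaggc
Lpin2: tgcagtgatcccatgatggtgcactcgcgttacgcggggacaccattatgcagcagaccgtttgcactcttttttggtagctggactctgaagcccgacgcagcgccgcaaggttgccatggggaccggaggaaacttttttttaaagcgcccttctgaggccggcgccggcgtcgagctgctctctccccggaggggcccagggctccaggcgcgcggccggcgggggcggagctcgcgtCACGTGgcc
Lpin3: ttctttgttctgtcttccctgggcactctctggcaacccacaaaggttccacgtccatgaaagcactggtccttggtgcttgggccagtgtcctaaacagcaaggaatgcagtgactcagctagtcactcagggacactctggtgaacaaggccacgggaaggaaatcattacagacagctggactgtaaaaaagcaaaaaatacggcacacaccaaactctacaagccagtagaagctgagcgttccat

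Of the genes described, 7 had an entry, with 12 windows of 250 bases between them, and each window was searched on both strands. The sterol regulatory element TCACNCCAC, bound by SREBP factors, was in 0 of the 12 windows and in 1.05% of all 32851 windows. The E-box CACGTG was in 1 of the 12, at 9 to 4 bases before the start of *Lpin2*, and in 6.02% of all windows. The CCAAT box was in 3 of the 12 (*Gpam*, *Agpat1* and a further start of *Lpin2*) and in 33.85% of all windows. The *Gpam* match, at 74 to 70 bases before the start, lies in the 81 bases that are not printed above. The TCF/LEF motif CTTTGAT was in 0 of the 12 and in 3.21% of all windows. No match of one motif overlapped a match of another, and a match is a description of the sequence alone.

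None of the 10 genes was called at an adjusted *p* under 0.05 by edgeR's quasi-likelihood test, which called 0.448% of all tested genes, nor by DESeq2, which called 3.08%. At an unadjusted *p* under 0.05, 0 of the 10 were higher in knockout liver, where 6.7% of all tested genes were, and 1 was lower (*Agpat2*), where 6.76% of all tested genes were. The knockout values lay wholly above the wild-type values for 0 of the 10 genes (10.2% of all tested genes) and wholly below them for 1, *Lpin3* (9.08% of all tested genes). Log2 fold changes ran from −0.51 to 0.72, with 5 above 0 and 5 below, and their median was 0.054 against −0.017 for all tested genes. The study's own threshold takes an absolute log2 fold change above 1.5 and a log2 value of at least 5. Applied to group means of quantile-normalised values, it selected 0 of the 10 genes. The share of all genes that pass it was not counted, so this 0 has no background to be read against. In bulk tissue, fewer cells of a type and less RNA per cell cannot be told apart.

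**Figure D1:**
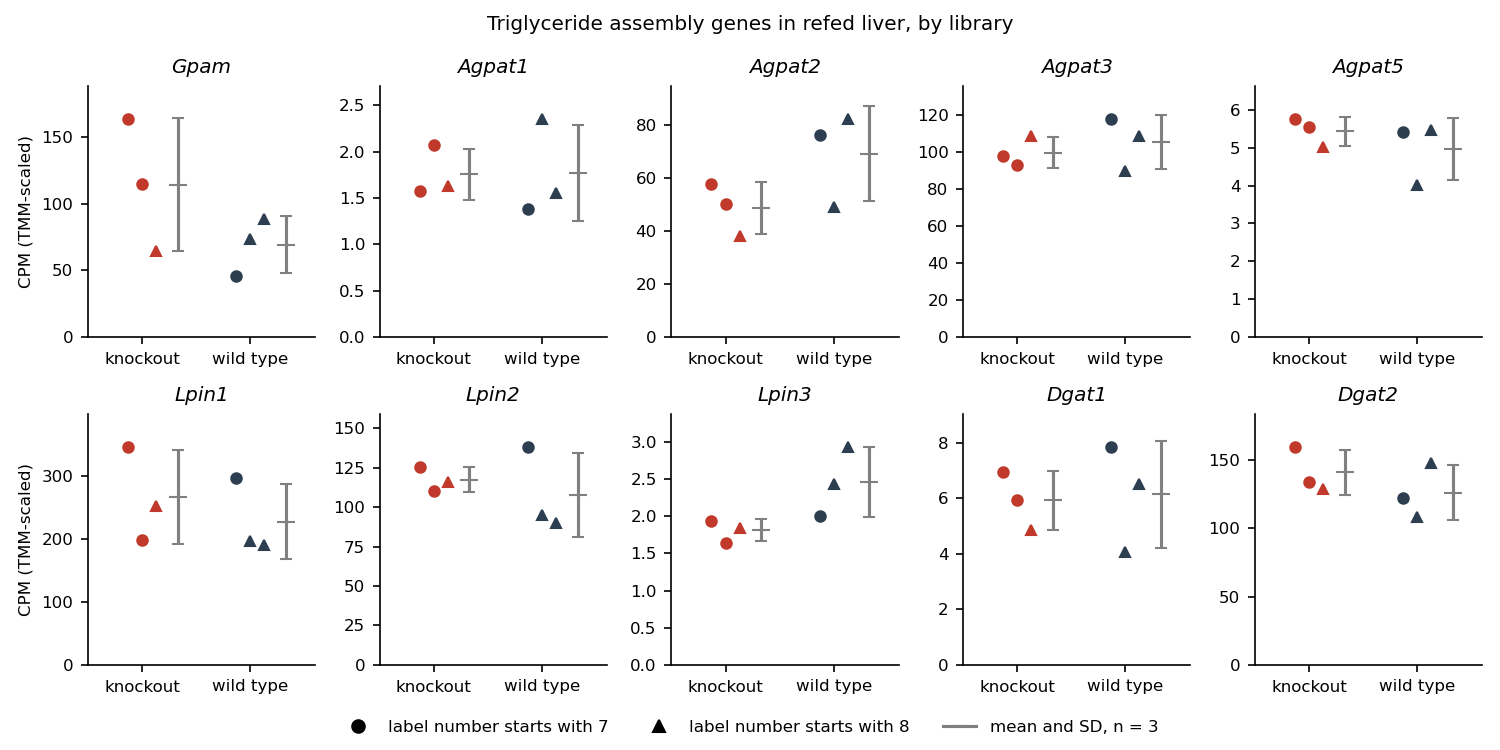
CPM (TMM-scaled, linear axis from 0) of each triglyceride assembly gene in 3 knockout libraries (red, left) and 3 wild-type libraries (dark, right). Circles are libraries whose label number starts with 7, triangles those that start with 8, and grey bars are the mean and SD. The groups overlap for every gene but *Lpin3*.

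*Gpam* encodes the mitochondrial glycerol-3-phosphate acyltransferase of the first step (NM_008149, chromosome 19, 55067635 to 55127319 of GRCm38.p6). It stood at 164, 115 and 64.3 CPM in knockout livers, against 46.2, 73.4 and 88.6 CPM in wild-type livers. Knockout libraries 7-2 and 7-3 lay above every wild-type library, and knockout library 8-3 lay below wild-type libraries 8-1 and 8-3. The means were 114 ± 49.7 CPM in knockout and 69.4 ± 21.5 CPM in wild-type livers (SD, *n*=3 each). The log2 fold change was 0.72 (SE 0.33, edgeR adjusted *p*=0.385, DESeq2 adjusted *p*=0.201), with a 95% interval from 0.984-fold to 2.75-fold. Permuting the group labels over the log2 CPM gave an exact two-sided *p*=0.3. SREBP1c targets, to which *Gpam* belongs, were examined by the study in these same libraries, so its direction here is not independent evidence.

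*Gpam* was also read within the leading number of the library labels, 7 or 8, whose meaning the labels do not give. Among libraries numbered 7, the knockout mean of 139 CPM stood against 46.2 CPM in the 1 wild-type library, a log2 difference of 1.57. Among those numbered 8, the 1 knockout library at 64.3 CPM stood against a wild-type mean of 81.0 CPM, a difference of −0.33. The direction therefore differed between the label numbers, each of which has only 1 library on one side. Leaving out knockout library 7-2 gave a log2 fold change of 0.37, and leaving out knockout library 8-3 gave 1.00.

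The lysophosphatidate acyltransferases follow *Gpam*. *Agpat2*, the AGPAT whose loss causes generalised lipodystrophy in humans (NM_026212, chromosome 2, 26593057 to 26604417), stood at 57.7, 50.2 and 38.2 CPM in knockout livers, against 76.4, 49.1 and 82.5 CPM in wild-type livers. The groups overlapped, since wild-type library 8-1 lay below knockout libraries 7-2 and 7-3, while the other wild-type libraries lay above all knockout libraries. Its means were 48.7 ± 9.87 CPM in knockout and 69.3 ± 17.8 CPM in wild-type livers (SD, *n*=3 each). The log2 fold change was −0.51 (SE 0.23, edgeR adjusted *p*=0.368, DESeq2 adjusted *p*=0.273), with an unadjusted edgeR *p*=0.0486 and a two-sided exact permutation *p*=0.3. The difference was −0.51 among libraries numbered 7 and −0.74 among those numbered 8, and leaving out 1 library at a time gave −0.70 to −0.36. Scaled by library sizes alone it was 0.079, so its sign depends on the scaling. That scaling put the median of all tested genes at 0.61. With upper-quartile and RLE factors the *Agpat2* value was −0.52 and −0.51.

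Exons of *Agpat2* share 1088 of their 4495 bases with exons of *Egfl7* on the opposite strand in GENCODE, and the sources used here do not say whether the counting used strand. *Egfl7*, an endothelial gene, averaged 4.18 CPM in knockout and 3.59 CPM in wild-type livers (log2 fold change 0.22, edgeR adjusted *p*=0.682).

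The other AGPATs differed less. *Agpat3*, which acts at the endoplasmic reticulum and the Golgi (NM_053014, chromosome 10, 78269174 to 78352497), stood at 97.8, 92.9 and 109 CPM in knockout livers, against 118, 89.8 and 109 CPM in wild-type livers. The knockout values lay within the wild-type range, and the log2 fold change of −0.082 had a 95% interval from −0.45 to 0.28 (edgeR adjusted *p*=0.864). *Agpat1*, a widely expressed AGPAT of the endoplasmic reticulum (NM_001163379, chromosome 17, 34604195 to 34613449), stood at 1.57, 2.07 and 1.62 CPM in knockout livers, against 1.38, 2.35 and 1.56 CPM in wild-type livers. Its extremes were both wild-type libraries, and the log2 fold change was −0.013 (95% interval −0.62 to 0.59, edgeR adjusted *p*=0.989). *Agpat5*, a mitochondrial AGPAT (NM_026792, chromosome 8, 18846279 to 18884413), stood at 5.76, 5.53 and 5.01 CPM in knockout livers, against 5.40, 4.02 and 5.47 CPM in wild-type livers. Wild-type library 8-1 lay below the other libraries, and the log2 fold change was 0.13 (95% interval −0.26 to 0.53, edgeR adjusted *p*=0.775). *Agpat5* shares 2043 of its 11203 exonic bases with *Gm35934* on the opposite strand.

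*Lpin1*, the fasting-induced lipin (NM_001130412, chromosome 12, 16535669 to 16653903), stood at 348, 199.5 and 253 CPM in knockout livers, against 297, 197 and 191 CPM in wild-type livers. In each group library 7-2 was the highest, and the groups overlapped. The means were 267 ± 75.0 CPM in knockout and 228 ± 59.4 CPM in wild-type livers (SD, *n*=3 each), with a log2 fold change of 0.23 (SE 0.25, 95% interval −0.34 to 0.79, edgeR adjusted *p*=0.719). It was −0.17 among libraries numbered 7 and 0.38 among those numbered 8. Without knockout library 7-2 it was −0.012, so the direction rests on that library.

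*Lpin2*, mutated in Majeed syndrome in humans (NM_022882, chromosome 17, 71183532 to 71249818), stood at 126, 110.1 and 116 CPM in knockout livers, against 138, 94.9 and 90.2 CPM in wild-type livers. The knockout values lay within the wild-type range. The log2 fold change was 0.12 (SE 0.19, 95% interval −0.31 to 0.55, edgeR adjusted *p*=0.819), with −0.24 among libraries numbered 7 and 0.33 among those numbered 8.

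*Lpin3*, the third lipin (NM_022883, chromosome 2, 160880670 to 160906000), stood at 1.94, 1.65 and 1.85 CPM in knockout livers, against 2.00, 2.44 and 2.94 CPM in wild-type livers. Every knockout library lay below every wild-type library, although knockout library 7-2 and wild-type library 7-2 were close. These values rest on 164, 125 and 159 counts in knockout livers and on 133, 204 and 200 counts in wild-type livers, so the order of the groups comes from the scaling as well as from the counts. The means were 1.81 ± 0.148 CPM in knockout and 2.46 ± 0.469 CPM in wild-type livers (SD, *n*=3 each). The log2 fold change was −0.44 (SE 0.23, 95% interval −0.95 to 0.064, edgeR adjusted *p*=0.429), and permuting the group labels gave an exact two-sided *p*=0.1, which 3 libraries against 3 cannot go below. With library sizes alone the log2 fold change was 0.21.

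The last step has 2 unrelated enzymes. *Dgat2*, which mainly uses newly made fatty acids in liver (NM_026384, chromosome 7, 99153663 to 99182713), stood at 159.8, 134 and 129 CPM in knockout livers, against 122, 108.5 and 148 CPM in wild-type livers. Knockout library 7-2 was the highest and wild-type library 8-1 the lowest, with the groups overlapping. The log2 fold change was 0.16 (SE 0.18, edgeR adjusted *p*=0.718), and its 95% interval ran from 0.850-fold to 1.47-fold. *Dgat1*, which also re-esterifies fatty acids taken up from outside (NM_010046, chromosome 15, 76502012 to 76512021), stood at 6.97, 5.95 and 4.86 CPM in knockout livers, against 7.87, 4.06 and 6.52 CPM in wild-type livers. The wild-type libraries held both the highest and the lowest value, and the log2 fold change was −0.052 (SE 0.25, 95% interval −0.60 to 0.50, edgeR adjusted *p*=0.953). *Dgat1* shares 2486 of its 4551 exonic bases with *Hsf1* on the opposite strand, and *Hsf1* averaged 4.75 CPM in knockout and 4.89 CPM in wild-type livers, so part of the *Dgat1* counts could not be told apart from those of *Hsf1* if strand was not used.

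**Figure D2:**
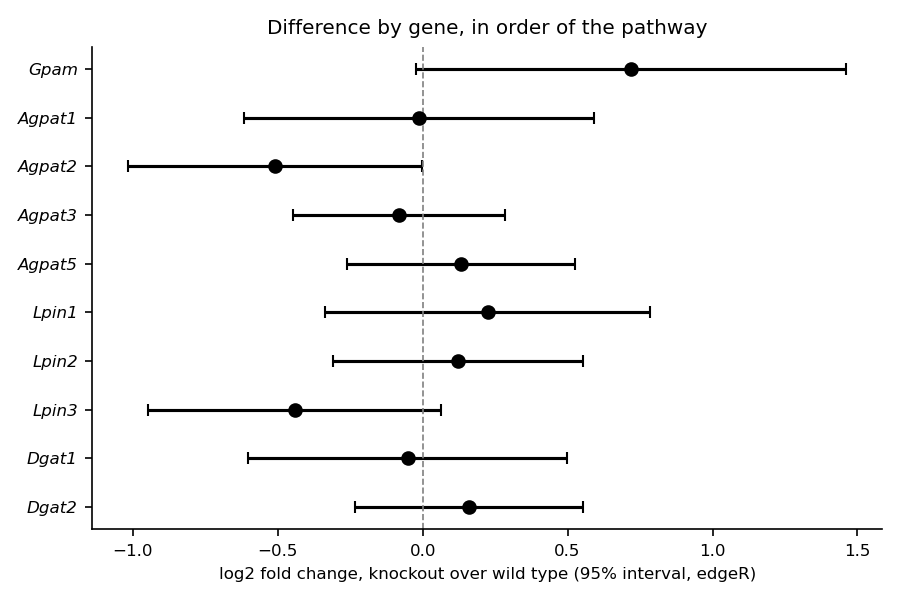
Log2 fold change of knockout over wild type (x axis) for the triglyceride assembly genes in order of the pathway (y axis), with the 95% interval from edgeR, *n*=3 libraries per group. The estimates run from −0.51 for *Agpat2* to 0.72 for *Gpam*, and the interval of *Agpat2* ends just below 0 while the others include 0.

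Levels of different genes were compared per kb of the canonical transcript in GENCODE. *Dgat2* had the highest mean level in both groups, with means of 52.7 CPM per kb in knockout and 47.2 CPM per kb in wild-type livers. *Lpin1* (41.5 CPM per kb in knockout, 35.5 CPM per kb in wild type) and *Agpat2* (27.3 CPM per kb in knockout, 38.9 CPM per kb in wild type) came next, *Lpin1* ahead in the knockout means and *Agpat2* ahead in the wild-type means. *Lpin2* (20.8 in knockout, 19.2 in wild type), *Agpat3* (14.99 in knockout, 15.9 in wild type) and *Gpam* (19.1 in knockout, 11.6 in wild type) formed the middle. *Dgat1* stood at 3.14 CPM per kb in knockout and 3.26 CPM per kb in wild-type livers. *Agpat1*, *Lpin3* and *Agpat5* were each below 1 CPM per kb in their group means. Each gene lay above the next in the order *Dgat2*, *Lpin1*, *Agpat2*, *Lpin2*, *Agpat3*, *Gpam*, *Dgat1*, *Agpat1*, *Lpin3* and *Agpat5* in 4 to 6 of the 6 libraries, and the pair in 4 was *Agpat3* over *Gpam*, whose order differed between libraries.

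Shares within a step do not depend on the scaling of a library. Of the lipin counts per kb, *Lpin1* took 65.3% ± 4.75 in knockout and 64.0% ± 0.617 in wild-type livers, and *Lpin3* took 0.845% ± 0.106 in knockout and 1.36% ± 0.511 in wild-type livers (SD, *n*=3 each). Of the DGAT counts per kb, *Dgat2* took 94.4% ± 0.458 in knockout and 93.6% ± 1.73 in wild-type livers. Both steps were thus shared out much alike in the 2 groups, with *Lpin1* and *Dgat2* ahead in every library. Of the AGPAT counts per kb, *Agpat2* took 62.2% ± 6.39 in knockout and 68.9% ± 3.83 in wild-type livers, and *Agpat3* took 34.8% ± 6.26 in knockout and 28.7% ± 3.05 in wild-type livers. These differences of −6.71 and 6.09 percentage points were −3.09 and 2.50 without knockout library 8-3. *Agpat5* took 1.11%, 1.18% and 1.19% in knockout livers, against 0.811%, 0.879% and 0.794% in wild-type livers. It was the single share of the 9 in these steps whose groups did not overlap, and its CPM did overlap. By CPM, 10.2% of all tested genes lay wholly higher in knockout liver. A share also moves with the other AGPATs, of which *Agpat2*, the largest, had a log2 fold change of −0.51. The *Agpat5* share was not tested.

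**Figure D3:**
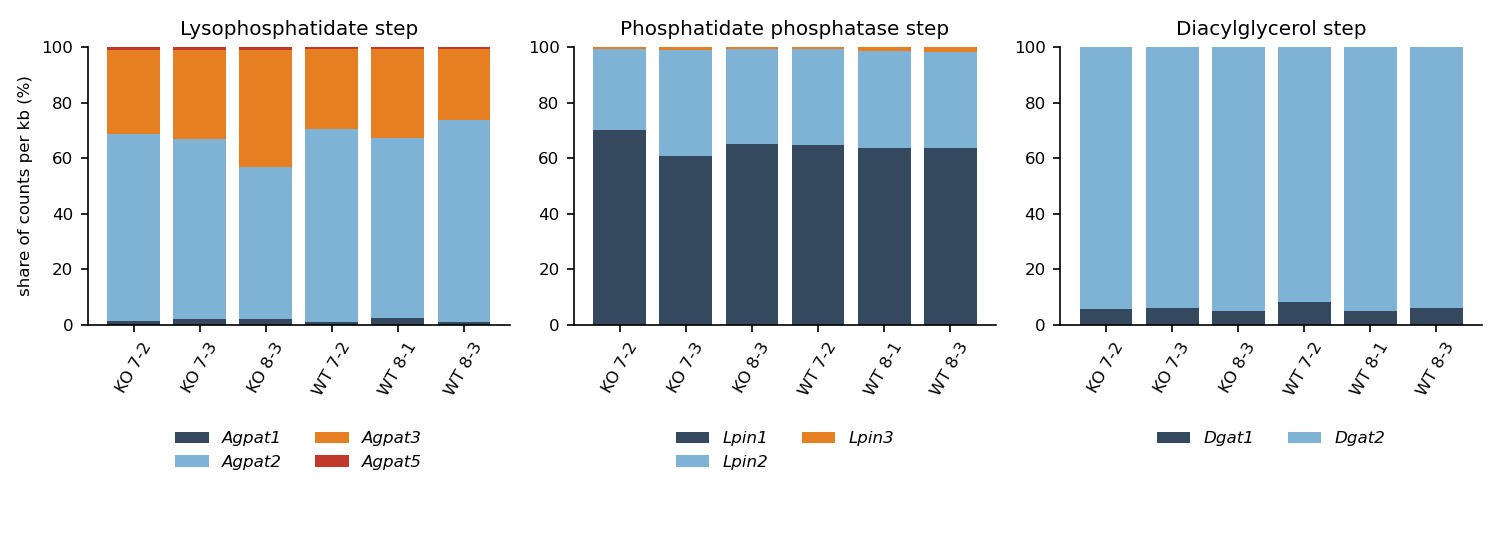
Share of counts per kb (y axis, %) of each AGPAT (left), lipin (middle) and DGAT (right) within its own step in each of the 6 libraries (x axis; KO, knockout; WT, wild type). *Agpat2* and *Agpat3* fill most of the first step, *Lpin1* about 64% to 65% on average of the second, and *Dgat2* over 90% of the third in every library.

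The first step has several enzymes, and *Gpat4* (labelled *Agpat6* in the files) and *Gpat3* (*Agpat9*) act at the endoplasmic reticulum. Of the counts per kb of the 4 glycerol-3-phosphate acyltransferases, a division added after the values were seen, *Gpam* took 59.2%, 49.7% and 34.6% in knockout livers, against 29.4%, 43.8% and 43.5% in wild-type livers. *Gpat4* took 39.3%, 48.7% and 62.4% in knockout livers, against 67.5%, 53.7% and 53.9% in wild-type livers. *Gpam* and *Gpat4* thus held nearly all of the step between them, and their order changed from library to library.

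Ratios between genes of a library are also free of its scaling. *Gpam* over *Agpat2* was 2.83, 2.29 and 1.69 in knockout livers, against 0.604, 1.496 and 1.07 in wild-type livers. The groups did not overlap, with a log2 difference of 1.16, but this pair was chosen after the counts were seen and has no test. It joins the genes with the highest and the lowest log2 fold change of the 10, so a wide difference follows from the choice. No background share is given for it here. *Gpam* over *Lpin2* was 1.30, 1.04 and 0.553 in knockout livers, against 0.334, 0.774 and 0.982 in wild-type livers, and *Gpam* over *Dgat2* was 1.02, 0.857 and 0.499 in knockout livers, against 0.378, 0.676 and 0.599 in wild-type livers. Both of these ratios overlapped between the groups. *Dgat2* over *Dgat1* was 22.9, 22.5 and 26.5 in knockout livers, against 15.5, 26.7 and 22.7 in wild-type livers. *Lpin1* over *Lpin2* was 2.77, 1.81 and 2.18 in knockout livers, against 2.14, 2.07 and 2.12 in wild-type livers. Both of these also overlapped, and the *Lpin1* to *Lpin2* ratio spanned a wider range in knockout than in wild-type livers.

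Other genes of the pathway were read from lists of acyltransferases, glycerol-3-phosphate and acyl-CoA supply, branches to phospholipids, lipin phosphatase and coactivator genes, and droplet budding. Of the 31 genes 28 were tested, and *Mogat1*, *Mogat2* and *Cds1* fell below the filter. EdgeR called 0 of the 28, with 4 higher and 1 lower in knockout liver where its *p* was taken unadjusted under 0.05. DESeq2 called 1 higher and 0 lower. The groups did not overlap for 6 higher and 1 lower genes. Over all tested genes, the shares were 6.7% higher and 6.76% lower unadjusted, 3.08% called by DESeq2, and 10.2% higher and 9.08% lower without overlap. The median log2 fold change was 0.029, with 15 genes above 0 and 13 below.

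Among the supply genes, 2 that make glycerol-3-phosphate are described first. *Gk*, glycerol kinase, which phosphorylates glycerol, stood at 31.2, 37.1 and 36.7 CPM in knockout livers, against 22.7, 26.9 and 24.9 CPM in wild-type livers (log2 fold change 0.50, edgeR adjusted *p*=0.189, DESeq2 adjusted *p*=0.0773). *Gpd1*, the dehydrogenase that makes glycerol-3-phosphate from a glycolytic intermediate, stood at 103, 117 and 102 CPM in knockout livers, against 219, 131 and 143 CPM in wild-type livers (log2 fold change −0.62, edgeR adjusted *p*=0.254, DESeq2 adjusted *p*=0.0935). Both separated the groups, *Gk* above and *Gpd1* below, without passing either test. *Acsl1*, which activates fatty acids to acyl-CoA, stood at 323, 239 and 354 CPM in knockout livers, against 266, 181 and 182 CPM in wild-type livers, with the groups overlapping (log2 fold change 0.54, edgeR adjusted *p*=0.336).

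On the branches to phospholipids, *Pcyt1a*, the rate-limiting enzyme of phosphatidylcholine synthesis, stood at 37.1, 40.2 and 39.4 CPM in knockout livers, against 26.5, 25.4 and 29.6 CPM in wild-type livers. It was the gene called by DESeq2 (adjusted *p*=0.0371) and not by edgeR (log2 fold change 0.52, adjusted *p*=0.159). *Plpp2*, a phosphatidate phosphatase of the membrane, and *Cds2*, which makes CDP-diacylglycerol, had log2 fold changes of −0.45 (edgeR adjusted *p*=0.435) and 0.25 (edgeR adjusted *p*=0.452).

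Of the other acyltransferases, *Lclat1*, which acylates lysocardiolipin, stood at 20.3, 20.6 and 18.6 CPM in knockout livers, against 15.2, 14.3 and 17.2 CPM in wild-type livers, without overlap (log2 fold change 0.35, edgeR adjusted *p*=0.315). *Gnpat*, which starts ether lipid synthesis in peroxisomes, gave a log2 fold change of 0.14 (edgeR adjusted *p*=0.648). *Gpat4* also had 0.14 (edgeR adjusted *p*=0.706). Among the lipin phosphatase and coactivator genes, *Ppara* had 0.23 (edgeR adjusted *p*=0.626). The nuclear membrane phosphatase gene *Ctdnep1* had −0.19 (edgeR adjusted *p*=0.645) and its partner *Cnep1r1* −0.26 (edgeR adjusted *p*=0.690). Of the droplet budding genes, *Bscl2*, encoding seipin, had −0.37 (adjusted *p*=0.438) and *Fitm2* 0.32 (adjusted *p*=0.572) from edgeR.

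Genes that follow the feeding state were read because *Gpam* and *Lpin1* move with it. EdgeR called 0 of 8, and its *p* before adjustment was under 0.05 for 2 that were higher and 2 that were lower. DESeq2 called 2, both higher. Over all tested genes edgeR called 0.448% and DESeq2 3.08%, and 6.7% were higher and 6.76% lower unadjusted. *Srebf1*, encoding SREBP1, stood at 113, 139 and 156 CPM in knockout livers, against 58.5, 64.3 and 95.4 CPM in wild-type livers (log2 fold change 0.90, edgeR adjusted *p*=0.132, DESeq2 adjusted *p*=0.00283). Knockout library 8-3 had the highest *Srebf1* of all libraries but the lowest *Gpam* of the knockout libraries.

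*Igfbp1*, a gene that insulin lowers, stood at 9.72, 22.2 and 9.03 CPM in knockout livers, against 54.1, 18.4 and 25.4 CPM in wild-type livers (log2 fold change −1.26, edgeR adjusted *p*=0.257). *Pdk4* and *Angptl4*, both induced by fasting, were named after their values were seen. Both were highest in wild-type library 7-2, at 3.54 and 68.8 CPM. Wild-type library 8-3, which had the highest wild-type *Gpam*, was close for *Pdk4*, at 3.37 CPM. Among the other listed genes, *G6pc* was also highest in wild-type library 7-2, at 84.6 CPM, followed by knockout library 7-2 at 74.0 CPM. *Pck1* was highest in wild-type library 8-3, at 1703 CPM, against 1657 CPM in wild-type library 7-2. Wild-type library 7-2 also had the lowest *Gpam*, the highest *Lpin1* among wild-type livers and the highest *Igfbp1*. Knockout library 7-2 had the highest *Lpin1* of all libraries (348 CPM) together with the highest *Gpam* (164 CPM), and its *Igfbp1* was 9.72 CPM. The part of these differences between mice in the *Gpam* and *Lpin1* values was not tested.

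**Figure D4:**
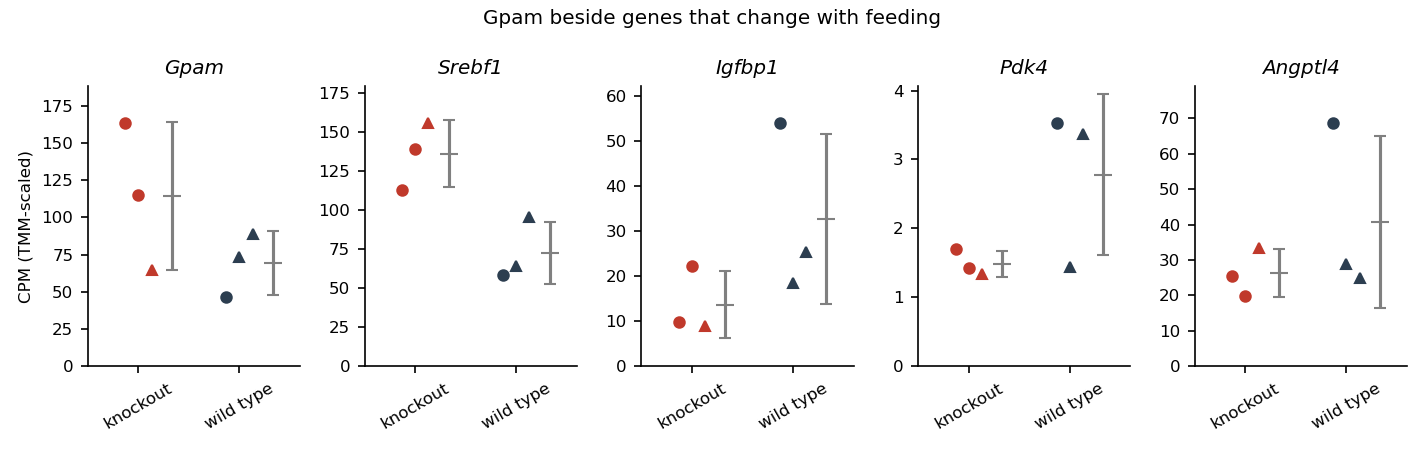
CPM (TMM-scaled, linear axes from 0) of *Gpam* and 4 genes that follow feeding in knockout libraries (red, left) and wild-type libraries (dark, right). Circles are libraries numbered 7, triangles those numbered 8, and grey bars the mean and SD (*n*=3). Wild-type library 7-2 has the lowest *Gpam* at 46.2 CPM and the highest *Igfbp1* at 54.1 CPM, and knockout library 8-3 joins the highest *Srebf1* at 156 CPM to a *Gpam* of 64.3 CPM.

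Markers of other cell types were set beside these genes. Of 6 adipocyte markers, 1 passed the filter, *Fabp4*, which carried nearly all of the summed level of 2.94 to 4.50 CPM in knockout livers and 4.61 to 5.13 CPM in wild-type livers. *Retn* was at 0 in every library, and *Adipoq*, *Lep*, *Plin1* and *Cfd* were at or near 0. The summed adipocyte level, set by *Fabp4*, was lower in knockout livers without overlap, as were 9.08% of all tested genes taken singly. Counts of *Adipoq* and *Plin1* were seen in knockout libraries alone, at no more than 0.0472 CPM. Counts of *Cfd* and *Lep* were seen in wild-type libraries alone, at no more than 0.147 CPM. Stellate cell markers summed to 52.4 to 61.2 CPM in knockout livers and 31.4 to 39.7 CPM in wild-type livers, with 3 of 6 above 0 in log2 fold change. *Dcn* (means of 31.2 CPM in knockout and 15.8 CPM in wild type, DESeq2 adjusted *p*=0.00175) and *Reln* (8.25 CPM in knockout and 4.404 CPM in wild type, DESeq2 adjusted *p*=0.00745) made most of that difference, and neither was called by edgeR. Sinusoidal endothelial markers summed to 43.1 to 49.4 CPM in knockout livers and 35.4 to 39.3 CPM in wild-type livers, with 5 of 5 above 0. Kupffer cell markers summed to 39.2 to 55.5 CPM in knockout livers and 50.4 to 67.8 CPM in wild-type livers, with 1 of 5 above 0. Summed cholangiocyte markers (7.26 to 9.32 CPM in knockout, 6.49 to 10.5 CPM in wild type) overlapped between the groups. Only 1 of the 4 was above 0 in log2 fold change, *Sox9* (0.32), which made most of the sum. *Krt19* (−0.85) and *Epcam* (−0.49) were below 0, and *Krt7* (−1.21, edgeR adjusted *p*=0.269) was lower without overlap. Summed skeletal muscle markers (0.105 to 0.165 CPM in knockout, 0.103 to 0.275 CPM in wild type) overlapped between the groups. The part of these cell types in the values of the assembly genes was not tested.

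The genes whose log2 CPM most resembled that of *Agpat2*, the gene with the smallest unadjusted *p*, were *Exosc4* (Pearson *r* 0.992), *Golt1a* (0.991) and *Eif3g* (0.990) over the 6 libraries. As many as 362 of the 14075 other genes had an *r* above 0.9, which all share the same 6 libraries, so this likeness is a description only. *Exosc4* stood at 4.58, 4.04 and 3.34 CPM in knockout livers, against 5.25, 4.16 and 5.75 CPM in wild-type livers.

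**Figure D5:**
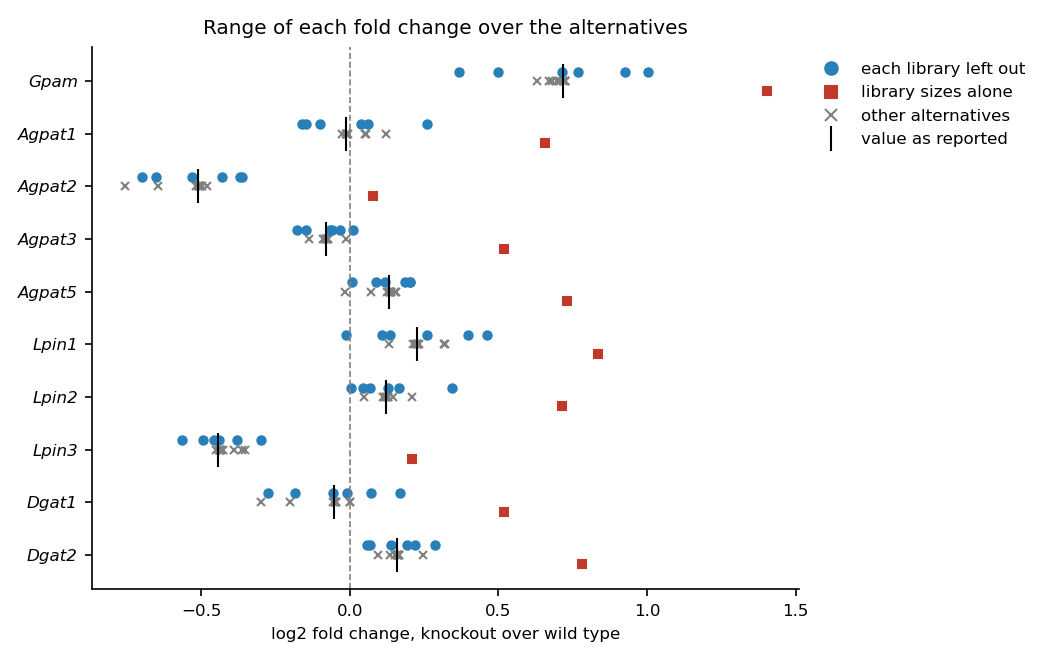
Log2 fold change of knockout over wild type (x axis) of each gene (y axis) with the value as reported (black bar), each library left out in turn (blue circles), library sizes alone (red squares) and the other alternatives (grey crosses). Library sizes alone put every gene higher, with *Gpam* at 1.40, and *Gpam* lies between 0.37 and 1.00 with 1 library left out.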

How the data were processed

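Liver RNA of 3 knockout and 3 wild-type mice was sequenced from directional libraries, and each library was taken as 1 mouse, with the group given by the labels. The labels do not say whether the mice came from separate litters, so *p* values measure only the spread between these libraries. The authors deposited raw counts per gene, which by their methods include unique as well as multiple alignments and were taken with Bedtools 2.25.0. The submitters' processing notes name TopHat and mm10. The aligner's version, the gene annotation and any use of strand were not given in the sources used here. Multiple alignments can move reads between similar genes. Of the symbols, 35 name more than 1 gene, none of them an assembly gene. The authors' quantile normalisation is not in the deposited counts. Every pair of libraries differed far beyond sampling noise (lowest chi-square per degree of freedom 189.7).

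Counts were tested with edgeR 4.0.16 (quasi-likelihood, R 4.3.3, limma 3.58.1) on all 6 libraries with no further term, TMM factors and the default filterByExpr filter (a min.count of 10 and a min.total.count of 15), with Benjamini-Hochberg adjustment over 14076 genes and a threshold of 0.05. The biological coefficient of variation was 23.9%. Shares used transcript lengths of GENCODE vM39, and gene positions and promoter sequences came from RefSeq on GRCm38.p6. The scripts were tested on simulated data. The comparison was repeated with DESeq2 1.42.0, library sizes alone, upper-quartile factors, RLE factors, scaling without 22 *Mup* genes, quantile-normalised values with limma, limma-voom, other filters on low counts, each library left out in turn and a replicate block on label numbers. Named genes were all 10 assembly genes, up to 3 genes of each pathway list with the smallest *p*, and the 3 genes most like the assembly gene with the smallest *p*. The genes and lists were chosen with earlier results of these data known. A gene that this rule takes is not reported here.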

Additional observations from a re-analysis of the deposited data

How the results depend on the processing

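No assembly gene was called in any alternative other than library sizes alone, which called 1 (*Gpam*, higher in knockout liver, log2 fold change 1.40). Library sizes alone also called 7 of the 28 other pathway genes and 3 of the 8 feeding-state genes, and DESeq2 called 1 and 2. Of all 14076 tested genes, library sizes alone called 2932 higher and 88 lower, and DESeq2 called 194 higher and 239 lower. The calls under library sizes alone are therefore to be read against many calls over all genes. Library sizes alone moved the median of all tested genes to 0.61 on the log2 scale, and turned *Agpat1* to 0.66, *Agpat2* to 0.079, *Agpat3* to 0.52, *Lpin3* to 0.21 and *Dgat1* to 0.52. *Agpat1* was 0.051 with quantile-normalised values and limma, and *Dgat1* was 0.0018 with limma-voom. With 1 library left out, the log2 fold change ran from −0.16 to 0.26 for *Agpat1*, −0.18 to 0.011 for *Agpat3*, −0.012 to 0.46 for *Lpin1* and −0.27 to 0.17 for *Dgat1*. A threshold of 0.6 in place of 1.5 on the log2 scale, close to reading 1.5 as a fold, selected 1 of the 10 genes, *Gpam* (0.70). The share of all genes over this threshold was not counted either. Without length scaling, the *Agpat5* share differed by 0.755 percentage points. The cause of these changes was not tested.

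Knockout and wild-type libraries share only the label numbers 7-2 and 8-3, and the deviations of same-numbered libraries from their group means correlated at 0.0014 and 0.00041 over genes. The meaning of the numbers is not given, and they were taken as names, not pairs. A replicate block on the leading number called 0 assembly genes and gave *Gpam* 0.63 (adjusted *p*=0.537 from edgeR), *Agpat2* −0.64 and *Agpat1* 0.056. A replicate block on the shared numbers, which leaves 4 libraries, called 0 and gave *Agpat1* 0.12 and *Agpat5* −0.015. With 3 mice per group, intervals were wide, such as 0.984-fold to 2.75-fold for *Gpam*, and the SE was larger for *Gpam* (0.33, with 3070 to 13859 counts) than for genes with 92 to 204 counts (*Agpat1* 0.27, *Lpin3* 0.23).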
